A study of Arabidopsis thaliana with 2 samples.

Results

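The 9 genes described here belong to the brassinosteroid pathway of Arabidopsis thaliana. Co-receptors and the kinases and phosphatases between receptor and transcription factors are not among them. They were chosen by locus from the 33602 loci of the count tables, and 9 of 9 were found and measured. DWF4, CPD, BR6OX2 and ROT3 encode cytochrome P450 enzymes of hormone synthesis. BAS1 encodes an inactivating enzyme, BRI1 the receptor, and BZR1, BES1 and BEE1 transcription factors.

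Both groups were first-pair rosette leaf explants of 1 line, pER8:3xFlag-NAC1 in the Col-0 ecotype, at 12 days after sowing. In the pER8 vector a chimeric activator, driven by a constitutive promoter, responds to estradiol and turns on 3xFlag-tagged NAC1, a NAC-domain transcription factor gene. The estradiol group was cultured on B5 medium with β-estradiol and DMSO, and the control group on B5 medium with DMSO alone. Each group has 1 library, so no test across samples was possible and no p-value is given. An estradiol-treated line without the transgene was not analysed here, so the effect of the steroid and that of NAC1 cannot be told apart.

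Brassinosteroids are plant steroid hormones that promote cell expansion and leaf growth. The hormone binds BRI1 at the cell surface together with a co-receptor of the SERK family, a kinase cascade then inactivates the kinase BIN2, and BZR1 and BES1 gather in the nucleus in their dephosphorylated form. BZR1 and BES1 are known to repress synthesis genes such as CPD and DWF4, which gives the pathway a negative feedback, and to activate growth genes.

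The control library held 39799127 gene counts and the estradiol library 48350705. NAC1 had 466 and 28380 counts, which is 49.4-fold higher with estradiol (95% counting interval 45.1 to 54.3). The library titles, DM for estradiol and ER for control, could be read as the reverse, and groups were taken from the treatment label and the culture protocol. If the titles held instead, every direction here would turn, and NAC1 would be higher without its inducer. The 5 leaf photosynthesis markers had 43595 to 123327 counts, with log2 ratios between -0.94 and -0.19. Of 5 root hair and root endodermis markers, 3 were at 0 in both libraries and the highest count was 6. The summed level of 3 guard cell markers was 59.5 CPM in the control and 40.3 with estradiol, that of 2 phloem markers 207 and 174, and that of 2 epidermis markers 49.4 and 41.5. None of these 12 leaf markers was called, but all 12 had counting intervals below 1, beside 35.3% of all measured genes. Their ratios ran from 0.417 (PDF1) to 0.889 (APL). With a coefficient of variation of 0.2 from library to library added, 3 of 12 intervals lay below 1, beside 9.95% of measured genes. What the lower marker levels have to do with the lower values of BES1, BEE1 and other genes was not tested. In bulk leaf RNA, fewer cells of a type and less RNA per cell cannot be told apart.

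Among the 9 genes, BR6OX2 was higher with estradiol and BEE1 was lower, and BES1 lay at the 2-fold threshold. Counts were scaled with TMM factors and given as CPM, that is, relative to a common library total. A gene was called higher or lower where the whole 95% interval of its ratio, from counting error alone, lay above 2 or below 0.5. This rule called 1 of 9 higher and 1 of 9 lower, beside 5.38% of 20274 measured genes higher and 4.64% lower. With 9 genes, 1 call in a direction is a small count and is not a result about the pathway as a whole. The interval lay wholly above 1 for 4 of the genes and wholly below 1 for 3, while 36.7% and 35.3% of all measured genes did so. Because libraries of equal treatment also vary, each interval was widened once more by an assumed coefficient of variation (CV) of 0.2, called the assumed variation here. Then 0 of the 9 were called higher and 1 lower, beside 3.16% and 1.81% of all measured genes. The widened interval lay above 1 for 1 gene, BR6OX2, and below 1 for 2, BES1 and BEE1, beside 8.39% and 9.95%. The median log2 ratio was -0.02 over the 9 genes and 0.01 over all measured genes.

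**Figure D1:**
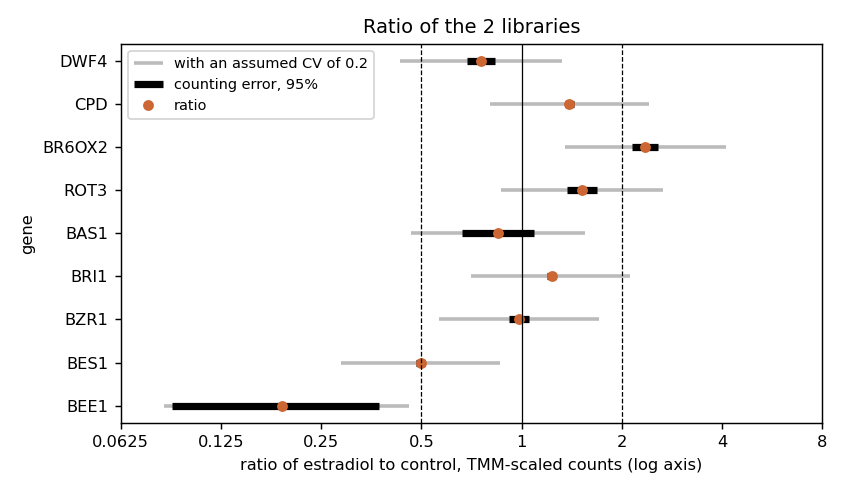
The ratio of estradiol to control on a log axis for each of the 9 genes (rows). Points are ratios, black bars 95% counting intervals (hidden by the point where narrow), grey bars intervals that add the assumed library variation, and dashed lines 0.5 and 2. BR6OX2 at 2.35 and BEE1 at 0.190 have counting intervals wholly past the dashed lines.

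The synthesis genes were not uniform. BR6OX2 (AT3G30180) encodes the oxidase CYP85A2, which makes castasterone and converts it to brassinolide, the most active form. Its counts were 658 (control) and 1907 (estradiol), or 16.7 and 39.2 CPM. The estradiol library was therefore the higher one, by 2.35-fold (2.15 to 2.57), and 6.20% of measured genes had a larger log2 ratio. The call rests on counting error alone. With the assumed variation the interval widened to 1.35 to 4.10, still above 1 but no longer wholly past 2.

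CPD (AT5G05690) and ROT3 (AT4G36380) encode CYP90A1 and CYP90C1, further cytochrome P450 enzymes of the pathway. CPD had 5127 and 8805 counts, a ratio of 1.39 (1.35 to 1.44). ROT3 had 587 and 1099 counts, a ratio of 1.52 (1.37 to 1.68). Neither was called, though both counting intervals lay above 1. DWF4 (AT3G50660) encodes CYP90B1, whose hydroxylation step is regarded as rate-limiting for the hormone. It had 903 and 839 counts, 22.9 and 17.2 CPM, and so lay on the other side of 1 with a ratio of 0.754 (0.686 to 0.829). With the assumed variation the intervals of CPD, ROT3 and DWF4 all held 1.

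BAS1 (AT2G26710) encodes CYP734A1, a hydroxylase that inactivates brassinosteroids. It had 126 and 132 counts, 3.19 and 2.71 CPM, a ratio of 0.850 (0.661 to 1.09). A difference between the libraries was not detectable at this depth. BRI1 (AT4G39400), the receptor kinase, had 6022 and 9092 counts, a ratio of 1.23 (1.19 to 1.27). It was not called, and 26.1% of measured genes had a larger log2 ratio.

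The 3 transcription factor genes differed from one another. BZR1 (AT1G75080) had 1473 and 1784 counts, 37.3 and 36.6 CPM, a ratio of 0.983 (0.917 to 1.05). Its closest relative BES1 (AT1G19350) had 9524 and 5831 counts, 241 and 119.7 CPM, which is 2.01-fold lower with estradiol (1.95 to 2.08). Since that interval holds 2, BES1 was not called, and with upper-quartile scaling it was, at a log2 ratio of -1.06 against -1.01. With the assumed variation its interval was 0.287 to 0.861, and 8.27% of measured genes had a lower log2 ratio. BES1 and BZR1 overlap neighbouring genes on the opposite strand by 818 and 629 bases, so their counts are uncertain without a known strand setting. The neighbour of BES1, RRA3, had 1449 and 2399 counts, and its part in the BES1 ratio was not tested. Protein level and phosphorylation, which set the activity of both factors, were not measured.

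BEE1 (AT1G18400) encodes a basic helix-loop-helix factor known as an early brassinosteroid-induced gene of growth. Its count was 47 with DMSO alone (Poisson interval 34.5 to 62.5) and 11 with estradiol (5.49 to 19.7). The intervals of the counts do not overlap. BEE1 was 5.27-fold lower with estradiol (2.69 to 11.3), and 1.21% of measured genes had a lower log2 ratio. It stayed called under the assumed variation, with a ratio interval of 0.0843 to 0.458. BEE1 is also the member with the fewest counts, and a minimum of 50 counts leaves it out.

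**Figure D2:**
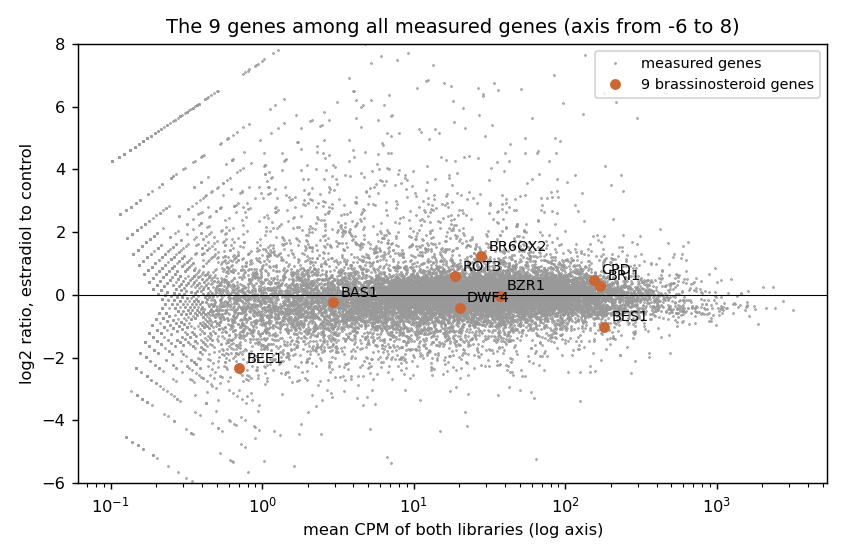
Log2 ratio of estradiol to control (vertical) against mean CPM of both libraries (horizontal, log axis), with a prior count of 0.5. Grey points are the 20274 measured genes, less those beyond the axis limits of -6 and 8, and orange points are the 9 brassinosteroid genes. BEE1 sits low at a low level, and BES1 sits below 0 at a high level, with a log2 ratio of -1.01.

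Levels of different genes were compared per kilobase of the longest annotated transcript. In the control library BES1 had the highest level at 109 CPM per kb, followed by CPD at 67.3, BRI1 at 34.8 and BZR1 at 22.5. BR6OX2 at 8.70, DWF4 at 8.03 and ROT3 at 6.36 CPM per kb lay below them, and BAS1 at 1.44 and BEE1 at 0.772 came last. BR6OX2 and DWF4 were neighbours that did not differ beyond counting error, with a ratio of levels of 1.08 (0.978 to 1.20). In the estradiol library CPD led at 93.7 CPM per kb, ahead of BES1 at 54.4 and BRI1 at 42.7. BR6OX2 at 20.5 then stood just under BZR1 at 22.1, while ROT3 at 9.67 stood above DWF4 at 6.06. BAS1 and BEE1 were again last, at 1.23 and 0.147 CPM per kb. The order thus changed at the top, between BES1 and CPD, and among the lower synthesis genes.

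**Figure D3:**
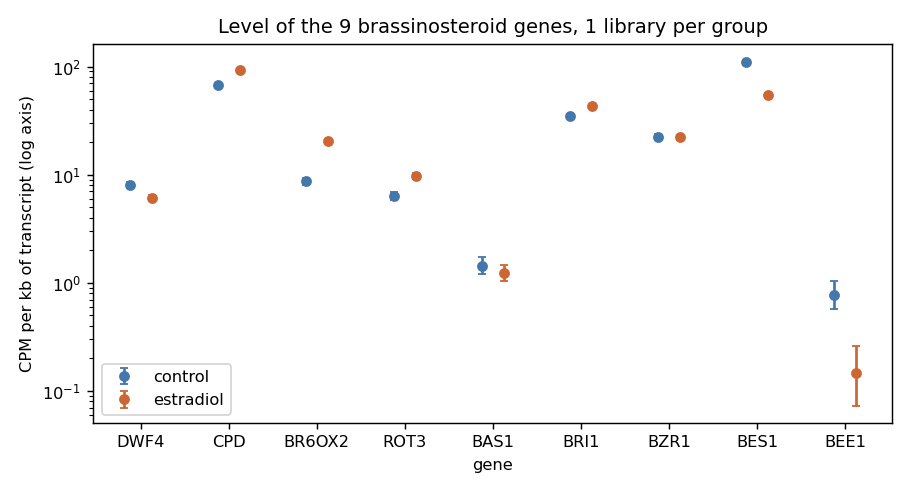
Level of each gene in CPM per kilobase of transcript on a log axis, for the control (blue) and the estradiol library (orange). Bars are exact 95% Poisson intervals, smaller than the point for most genes. The largest gaps between the libraries are at BEE1 (0.772 and 0.147), BR6OX2 (8.70 and 20.5) and BES1 (109 and 54.4).

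Related genes were then set against each other inside each library, which does not depend on the scaling of the libraries. These pairs were chosen after the values were seen. BR6OX1 encodes CYP85A1, an oxidase that shares the castasterone-forming step with BR6OX2. It had 297 and 170 counts, so the level of BR6OX2 was 2.36 times that of BR6OX1 in the control (2.06 to 2.72) and 12.0 times in the estradiol library (10.2 to 14.1). The ratio of these ratios was 5.06 (4.11 to 6.24). ROT3 and CYP90D1 likewise encode enzymes with overlapping roles. CYP90D1 had 468 and 282 counts, and the level of ROT3 was 1.19 times that of CYP90D1 in the control (1.06 to 1.35) and 3.71 times in the estradiol library (3.25 to 4.24). In both pairs the balance lay further towards the first gene in the estradiol library.

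BES1 stood at 4.87 times the level of BZR1 in the control (4.61 to 5.15) and at 2.46 times in the estradiol library (2.33 to 2.60). The receptor BRI1 had 19.3 times the level of its relative BRL1 in the control (17.2 to 21.7) and 19.8 times in the estradiol library (18.0 to 21.8). For this pair the ratio of ratios was 1.03 (0.887 to 1.19), so a shift was not detectable at this depth. BRL3, another BRI1 relative, had 501 and 1078 counts, and the ratio of BRI1 to BRL3 was 12.4 in the control (11.3 to 13.6) and 8.71 in the estradiol library (8.17 to 9.28).

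**Figure D4:**
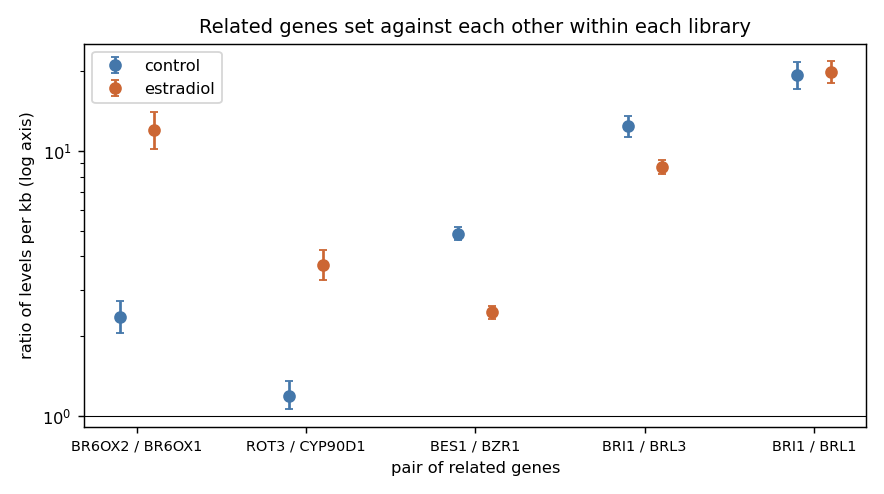
Ratio of the levels per kb of 5 pairs of related genes on a log axis, within the control (blue) and within the estradiol library (orange). Bars are exact 95% binomial intervals. BR6OX2 over BR6OX1 goes from 2.36 in the control to 12.0 in the estradiol library, while BRI1 over BRL1 is 19.3 and 19.8.

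A further 58 genes of the pathway were listed in 7 groups by role, and 54 of them were measured. The size rule called 2 of the 54 higher (3.70%) and 3 lower (5.56%), beside 5.38% and 4.64% of all measured genes, and their median log2 ratio was -0.02. With the assumed variation the interval lay below 1 for 11 of the 54 (20.4%) and above 1 for 2 (3.70%), beside 9.95% and 8.39% of all genes. Past the 2-fold threshold 1 was then higher, CDG1, and 1 lower, the expansin gene EXPA8, beside 3.16% and 1.81% of all measured genes. The lists were drawn up with earlier results of these data known, so these shares are not independent evidence of a shift in the pathway.

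None of the other 6 synthesis genes was called, with a median log2 ratio of -0.28. BR6OX1 and CYP90D1 had the lowest ratios among them, at 0.464 (0.382 to 0.563) and 0.489 (0.420 to 0.568). DWF1, a sterol reductase gene, had 11318 and 9716 counts, a ratio of 0.697 (0.678 to 0.716). None of 7 sterol precursor genes was called either, with a median of 0.11. The sterol methyltransferase genes SMT2 and SMT1 had ratios of 1.54 (1.47 to 1.61) and 1.22 (1.19 to 1.26), and the cyclopropyl isomerase gene CPI1 had 0.612 (0.551 to 0.679).

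Of 5 inactivation genes 4 were measured and 1 was called lower, beside 4.64% of all measured genes. The median log2 ratio of the 4 was -1.03. The counting interval lay below 1 for 3 of the 4 and above 1 for 1, beside 35.3% and 36.7% of all measured genes. With the assumed variation it lay below 1 for 3 and above 1 for 0, beside 9.95% and 8.39%. With 4 genes these are small counts. UGT73C5, whose product adds glucose to brassinosteroids and also to a fungal toxin, had 4201 and 1985 counts and was 2.61-fold lower with estradiol (2.47 to 2.75). It resembles UGT73C6 over part of the transcript, so reads of these genes may be split. Of 6 receptor and co-receptor genes 1 was called higher and 0 lower, beside 5.38% and 4.64% of all measured genes. The called gene was SERK4, a co-receptor gene that also acts in immunity and cell death control. It had 2505 and 6605 counts, 2.14-fold higher (2.04 to 2.24), and has a similar copy as well. Neither call held under the assumed variation. The widened intervals were 0.221 to 0.666 for UGT73C5 and 1.23 to 3.71 for SERK4, and neither of them held 1.

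In the group of signalling kinases, phosphatases and the inhibitor BKI1, 11 of 12 were measured. Of these 1 was called higher and 0 lower, beside 5.38% and 4.64% of all measured genes. With 11 genes 1 call is a small count. CDG1, a kinase that relays the signal from BRI1 to the phosphatase BSU1, was at 0 counts with DMSO alone and at 78 with estradiol. Against a floor of 3 control counts, with the 78 counts taken as exact, it was at least 21.1-fold higher. The lower limit of its counting interval, which also covers the error of the 78, was 16.8-fold, and 7.49-fold with the assumed variation. The other 10 were not called, and BIN2, the central inhibitory kinase, had 6507 and 8240 counts, a ratio of 1.03 (0.995 to 1.06). BIN2 overlaps AT4G18720 on the same strand by 1284 bases and has a similar copy, so its counts are uncertain. BSU1 was the gene not measured, with 4 counts in each library.

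Of 12 further transcription factor genes 10 were measured. Of these 1 was called lower and 0 higher, beside 4.64% and 5.38% of all measured genes. With 10 genes 1 call is a small count. BEE2, a relative of BEE1, had 2029 and 1092 counts and was 2.29-fold lower with estradiol (2.13 to 2.47), a call that did not hold under the assumed variation. BEE3, named because it is the remaining BEE gene, had 217 and 122 counts, a ratio of 0.456 (0.362 to 0.572). All 3 BEE genes had counting intervals below 1, as did 35.3% of all measured genes. With the assumed variation all 3 intervals still lay below 1, as did 9.95% of all measured genes. BEE3 was added after its value was seen. Relative to BEE2, BEE1 was 2.30-fold lower with estradiol (1.19 to 4.45), and relative to BEE3 2.40-fold lower (1.20 to 4.80).

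Of 10 brassinosteroid response genes, all measured, 1 was called lower and 0 higher, beside 4.64% and 5.38% of all measured genes. EXPA8, which encodes a wall-loosening expansin, had 97 and 13 counts, or 2.45 and 0.267 CPM, and was 9.19-fold lower with estradiol (5.13 to 17.9). The median log2 ratio of the response genes was -0.11, with a range from -3.15 to 1.35. The counting interval lay below 1 for 5 of the 10 and above 1 for 3, beside 35.3% and 36.7% of all measured genes. With the assumed variation it lay below 1 for 3 and above 1 for 0, beside 9.95% and 8.39%. With 10 genes these are small counts.

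**Figure D5:**
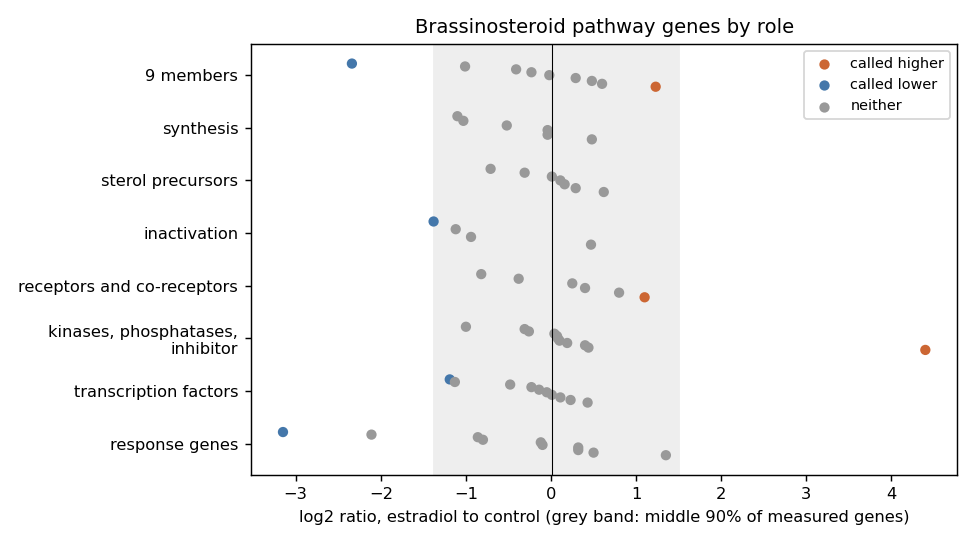
Log2 ratio of estradiol to control for the 9 genes and, below them, for the measured genes of each of 7 pathway groups, with 1 point per gene. Orange points were called higher, blue points lower and grey points neither, and CDG1 (0 control counts) is drawn at its value of 21.1-fold against a floor of 3 counts. The grey band holds the middle 90% of all measured genes, and most pathway genes lie inside it.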

How the data were processed

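The authors deposited raw read counts per locus, 1 table for each library. The submitters' processing notes list HTSeq, FastQC, DESeq and TAIR10 with no version. For the aligner, annotation release and strand setting, nothing is stated in the labels or headers. All 5 summary lines of each table stayed out of library sizes (ambiguous reads were 2.05% of the control and 1.91% of the estradiol table).

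Library sizes were scaled with TMM factors (0.993 and 1.007) from edgeR 4.0.16 in R 4.3.3. A gene was measured with at least 10 counts in 1 or more libraries. Ratios have exact conditional 95% intervals (Clopper-Pearson, scipy 1.17.1), and log2 ratios a prior count of 0.5. Intervals of a ratio of ratios use the normal approximation on the log scale. Intervals and floors cover counting error only, and may be too narrow because reads that carry no molecular identifier may be copies of one molecule. The calculation was tested on simulated Poisson counts without variation between libraries. That checks the code only, and cannot show how the intervals perform where libraries vary.

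Symbols, transcript lengths and overlaps come from the TAIR10.1 annotation, in which all 67 member and list genes matched. As the notes name TAIR10, no coordinates or sequences are given. Of the 9 genes, 4 overlap another counted locus. BES1 overlaps RRA3 by 818 bases and BZR1 overlaps AT1G75090 by 629, so their counts are uncertain without a strand setting. For ROT3 and CPD the overlaps are 83 and 20 bases. None of the 9 has a similar copy (at least 90% identity over 100 bases, BLAST 2.17.0).

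The members and lists were chosen with earlier results of these data known. From the lists, every called gene was named, or up to 3 by the interval bound farthest from 1 where none was called. BRL1, BRL3, BEE3, BIN2 and BSU1 were named after their values were seen. Alternatives were DESeq2 1.42.0 size factors, other scalings, count minimums, fold thresholds and prior counts, and an assumed variation between libraries.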

Additional observations from a re-analysis of the deposited data

How the results depend on the processing

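Of 93 recomputed values 71 were labelled the same as the reported value. A count or percentage was labelled so within 1.5-fold of the reported one. For a log2 ratio, the call had to hold and the value to stay inside the counting interval. Some of these could not differ, since the assumed variation leaves every log2 ratio as it is and the prior count enters no call. The 71 are therefore not a measure of how robust the results are. With upper-quartile factors BES1 was called lower as well (log2 ratio -1.06), so 2 of the 9 genes were lower, 1 other pathway gene (CDG1, without SERK4) was higher, and the log2 ratios of CPD and BRI1 were 0.43 and 0.24. With library variation added (an assumed CV of 0.2) the call of BR6OX2 was lost at its log2 ratio of 1.23, which left 0 of the 9 higher. The other pathway genes then had 1 higher and 1 lower, and the shares of all measured genes were 3.16% higher and 1.81% lower. A minimum of 50 counts left 0 of the 9 lower, since BEE1 is then not measured. With a 1.5-fold threshold 2 of the 9 and 10 other pathway genes were lower, beside 8.92% of all genes higher and 9.91% lower. With a 4-fold threshold 0 of the 9 were higher and 0 lower, 1 other pathway gene was higher and 1 lower, and the shares of all genes were 2.31% and 0.794%. DESeq2 size factors, total gene counts and no count minimum changed no call among the 9 genes. The prior count enters the log2 ratios only.

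No paired analysis was possible because each group has 1 library, and leaving out a replicate was not done for the same reason. The variation between explants is unknown, and depth limits BEE1 most, with 11 counts in the estradiol library.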
